A study of Mus musculus with 6 samples.

Results

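The 7 windows compared here between Th1 and Th2 cells carry the names Tbx21, Ifng, Gata3, Il4-Il5, Epas1, Foxp1 and Hand2 and are stretches of the mouse genome build mm9. They were chosen by measured values of these same libraries, with results on Ezh2 in Th1 and Th2 already known, so their Ezh2 values are a description and none of them is a test. Together they hold 1030 of the 2638957 bins of 1 kb on chromosomes 1 to 19 and X. The study sequenced DNA pulled down from chromatin (ChIP-seq) with a polyclonal antibody to Ezh2 or with a control rabbit immunoglobulin, together with the input DNA, in both cell types. Naive CD44low CD62Lhigh CD4+ T cells from spleens of C57BL/6 mice, with no allele or deletion named, were kept for 5 days in IL-2 (15 ng/ml), of which 2 days with antibodies to TCRβ and CD28 and 3 days without them. Th1 cultures also received IL-12 (10 ng/ml) and an antibody to IL-4, and Th2 cultures received IL-4 (100 ng/ml) and an antibody to IFN-γ. Each of the 6 groups was 1 library with no replicate. Ages of the mice and how many gave cells to a library are not stated in the labels, and pull-downs of DNA hold no RNA by which the labelled cell types could be checked.

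Polycomb repressive complex 2 keeps genes silent by methylating lysine 27 of histone H3, and Ezh2 is its enzyme. In helper T cells, T-bet (encoded by Tbx21) drives the Th1 fate and the cytokine interferon gamma (Ifng), while GATA3 drives the Th2 fate and the cytokines IL-4, IL-5 and IL-13, whose genes lie together around Rad50, a DNA repair gene. Epas1 encodes the hypoxia factor HIF-2α, Foxp1 a forkhead factor that keeps naive T cells quiescent, and Hand2 a factor of heart and limb development of the kind that Polycomb keeps silent in blood cells.

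The windows differ in the sequence of the promoters of the genes they are named for, and CG dinucleotides, which mark the promoters that Polycomb typically occupies in mammals, are set in capitals below. Each sequence is the 250 bases before an annotated start in RefSeq, build GRCm38.p6, written 5′ to 3′ on the strand of the gene, which is the minus strand for Tbx21, Gata3 and Il4 and the plus strand for Ifng, Il5 and Hand2. They are shown to set the CG-rich promoters of Tbx21, Gata3 and Hand2 beside those of the cytokine genes Ifng, Il4 and Il5, which hold fewer.
Tbx21: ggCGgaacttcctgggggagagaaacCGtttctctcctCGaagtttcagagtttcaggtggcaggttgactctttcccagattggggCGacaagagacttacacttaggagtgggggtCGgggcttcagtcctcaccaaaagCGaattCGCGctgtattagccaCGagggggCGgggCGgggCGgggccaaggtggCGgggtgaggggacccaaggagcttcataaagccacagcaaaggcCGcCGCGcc
Ifng: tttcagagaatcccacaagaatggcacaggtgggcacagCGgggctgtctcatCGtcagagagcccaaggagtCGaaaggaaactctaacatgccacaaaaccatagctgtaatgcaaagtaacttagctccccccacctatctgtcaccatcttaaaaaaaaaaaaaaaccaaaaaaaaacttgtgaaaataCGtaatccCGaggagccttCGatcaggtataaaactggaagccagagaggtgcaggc
Gata3: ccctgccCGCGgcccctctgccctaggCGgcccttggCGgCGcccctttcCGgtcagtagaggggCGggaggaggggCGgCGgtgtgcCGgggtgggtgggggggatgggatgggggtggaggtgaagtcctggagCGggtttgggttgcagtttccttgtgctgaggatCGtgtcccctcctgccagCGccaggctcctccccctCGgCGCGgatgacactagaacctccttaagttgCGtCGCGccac
Il4: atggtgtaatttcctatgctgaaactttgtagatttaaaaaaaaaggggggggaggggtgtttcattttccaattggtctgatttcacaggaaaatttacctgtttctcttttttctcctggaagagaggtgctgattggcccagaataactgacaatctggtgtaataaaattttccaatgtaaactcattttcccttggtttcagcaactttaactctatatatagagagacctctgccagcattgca
Il5: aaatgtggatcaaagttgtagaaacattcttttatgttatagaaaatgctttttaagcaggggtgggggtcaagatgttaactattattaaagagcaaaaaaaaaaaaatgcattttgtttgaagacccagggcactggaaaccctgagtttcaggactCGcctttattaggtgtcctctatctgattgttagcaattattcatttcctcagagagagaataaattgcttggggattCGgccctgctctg
Hand2: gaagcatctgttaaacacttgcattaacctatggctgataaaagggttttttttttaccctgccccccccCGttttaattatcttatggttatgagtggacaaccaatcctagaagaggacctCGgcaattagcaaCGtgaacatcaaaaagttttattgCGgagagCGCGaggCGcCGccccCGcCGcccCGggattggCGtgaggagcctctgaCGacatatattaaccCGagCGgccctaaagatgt

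The motif CG reads the same on both strands, and over all 32851 promoters of the table its median was 6 in the same 250 bases. Gata3 had 19, Tbx21 16 and Hand2 15, and 19.7%, 25.4% and 27.3% of all promoters had at least as many. Ifng had 6, at the median. Among the Th2 cytokine genes, Il13 had 3, Il5 had 2, and Il4 had 1 at one start and 0 at the outermost one, the one printed. At Foxp1 the 3 annotated starts had 34, 11 and 3. In all, 8 of 10 genes matched an entry, and Rad50 and Epas1 had none. The gene order of GRCm38.p6 puts Il4, Il13, Rad50 and Il5 next to each other. No annotation of mm9 was used, so no gene start is placed within a window, and the windows keep the names of the rule that chose them.

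Deposited read intervals were counted once per distinct interval at their midpoints, here called positions, and divided by the library total. Th1 had 10809666 positions with the Ezh2 antibody and 15578675 in its input, and Th2 had 14963599 and 12862628. A position had on average 2.25 reads in the Th1 Ezh2 library, 2.04 in that of Th2, and 1.30 and 1.77 in the respective inputs. Folds over input are Ezh2 positions over input positions of the same cell type, each per library total, and ratios are Th1 over Th2. The ranges in parentheses are 95% exact (Clopper-Pearson or conditional) intervals. They cover counting error only, and they compare libraries and not cell types. The file names give the Ezh2 libraries different run labels, so cell type and run cannot be told apart.

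**Figure D1:**
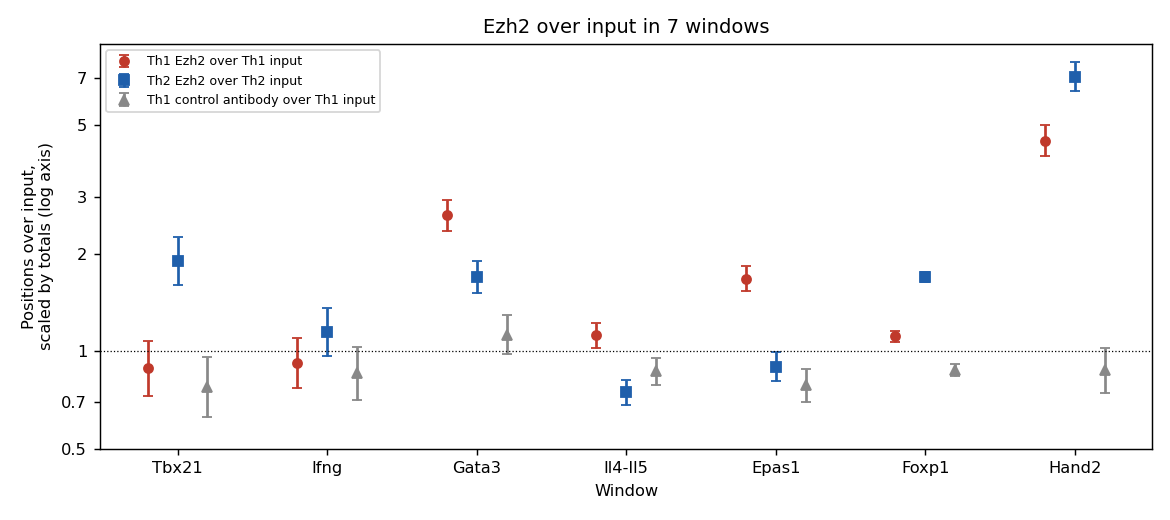
Positions over input, per library total, on a log axis for each of the 7 windows, in the Th1 Ezh2 (circles), Th2 Ezh2 (squares) and Th1 control antibody (triangles) libraries; bars are 95% intervals for counting error. Hand2 stands highest in both cell types, Tbx21 and Foxp1 are higher over input in Th2, Gata3 and Epas1 in Th1, and the control antibody lies between 0.777 and 1.13.

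The window named for Tbx21, the gene of the Th1 regulator T-bet, had more Ezh2 in Th2 than in Th1. In chr11:96955001-96985000 (30 kb), Ezh2 had 169 positions in Th1 and 442 in Th2, beside 275 and 200 of input. Ezh2 was 0.886-fold of input in Th1 (0.727 to 1.08), and in Th2 it was 1.90-fold (1.60 to 2.26). The Th1 library was thus level with its input within counting error, while the Th2 library was above its own. Ezh2 was 1.89-fold higher in Th2 (1.58 to 2.27), and 2.14-fold higher when each library was set over its input (1.65 to 2.79). Of end-to-end tiles of the same width, 0.143% had a Th1 to Th2 ratio as low, where the 5th to 95th percentile of tiles ran from 0.732 to 1.30. Tiles that overlap the window were kept, here and for the other windows, so such shares can include the window's own stretch.

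Within the Tbx21 window, the Th1 to Th2 ratio lay below 1 in enriched and other bins alike. Per library total, 24 of 30 bins held more Ezh2 in Th2. No share over all bins of the genome stands beside this count, so nothing is read from it. A 1 kb bin was called enriched when both Ezh2 libraries together were at least 2-fold over both inputs together, with at least 20 positions over the 4 libraries. This held for 4 of 30 bins of the window and for 8.59% of all bins tested in the genome. Enriched bins and their runs, here and in the other windows, were picked for high Ezh2, which either library alone can supply. Their folds and ratios are partly set by that choice, and the intervals leave it out. The longest run of enriched bins, chr11:96977001-96981000, began 22 kb into the window and held 25 Ezh2 positions in Th1 and 92 in Th2, against 39 and 19 in the inputs. In that run Ezh2 was 0.924-fold of input in Th1 (0.536 to 1.57), and in Th2 4.16-fold (2.52 to 7.23), a 2.66-fold higher level in Th2 (1.69 to 4.32). Its first bin, chr11:96977001-96978000, had 4 positions in Th1 and 30 in Th2, and was both the bin with the most Ezh2 in Th2 and the enriched bin with the lowest Th1 to Th2 ratio. The last bin of the run, chr11:96980001-96981000, had 12 and 18, a ratio of 0.923 (0.405 to 2.02). Outside the enriched bins, Ezh2 was still 1.75-fold higher in Th2 (1.44 to 2.15). The bin counts of the libraries did not rank alike along the window (Spearman's rho -0.02 over 30 neighbouring bins, which share libraries and low counts).

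The window named for Ifng, the gene of the main Th1 cytokine, showed no difference beyond counting error. This window, chr10:117860001-117900000 (40 kb), had 213 positions of Ezh2 in Th1 and 312 in Th2, beside 333 and 234 of input. Th1 stood at 0.922-fold of its input (0.773 to 1.10) and Th2 at 1.15-fold (0.964 to 1.36), and both intervals hold 1. The Th1 to Th2 ratio of Ezh2 was 0.945, with an interval from 0.790 to 1.13, and 37.2% of tiles of this width had a ratio as low. Over the inputs the ratio was 0.804 (0.627 to 1.03). Of the 40 bins 32 had enough positions to be tested, and none was enriched. The fullest Th1 bin, chr10:117873001-117874000, counted 12 of Ezh2 against 10 for Th2. The fullest Th2 bin was its neighbour chr10:117872001-117873000, with 16 against 4 for Th1. At this depth neither fold differed from 1 beyond counting error in the Ifng window, and a Th1 to Th2 difference was not detectable. The median tile of this width stood at 0.879-fold in Th1 and 0.878-fold in Th2. The interval of Th2 lies above that level and the interval of Th1 holds it. Folds at least as high were reached by 42.9% of tiles in Th1 and 16.8% in Th2.

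The window named for Gata3, the gene of the Th2 regulator, held Ezh2 over input in both cell types and more in Th1. In chr2:9770001-9830000 (60 kb) Ezh2 had 937 positions in Th1 and 918 in Th2, beside 513 and 464 of input. Over input, Th1 stood at 2.63-fold (2.36 to 2.94) and Th2 at 1.70-fold (1.52 to 1.91). The ratio of Th1 to Th2 was 1.41 (1.29 to 1.55), and 1.55 over the inputs (1.32 to 1.81). Only 0.324% of tiles of that width had a ratio as high. The Gata3 window thus differed in the opposite direction to the Tbx21 window, but Th2 also stood over its input here, whereas Th1 did not at Tbx21.

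One block carried the Gata3 signal. The run chr2:9802001-9822000 (20 kb, from 32 kb into the window) held 661 Ezh2 positions in Th1 and 571 in Th2, against 174 and 158 in the inputs. In it, Ezh2 was 5.47-fold over input in Th1 (4.63 to 6.51) while Th2 stood at 3.11-fold (2.60 to 3.73), and the ratio of the Ezh2 libraries was 1.60 (1.43 to 1.80). In the Gata3 window 22 of 59 bins tested were enriched (37.3%, against 8.59% in the genome). They held 72.4% of its Ezh2 positions in Th1 and 64.7% in Th2 but 35.3% and 36.2% of its input positions. Inside the block the difference was uneven. The bin chr2:9803001-9804000 had 35 Th1 and 10 Th2 positions of Ezh2, a ratio of 4.84 (2.35 to 11.0), and the fullest Th1 bin, chr2:9805001-9806000, had 63 and 22. Further along, the fullest Th2 bin, chr2:9814001-9815000, had 34 in Th1 and 51 in Th2, and the bin chr2:9813001-9814000 had 13 and 32, a ratio of 0.562 (0.271 to 1.10). The ratios were largest near the left edge of the block. Of its 20 bins, 17 were higher in Th1 per library total, a count with no genome share beside it, from which nothing is read. Outside the enriched bins the ratio was 1.11, and its interval, 0.936 to 1.31, holds 1.

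The window named for the Th2 cytokine genes Il4 to Il5 was lower over input than Gata3 in both cell types. In chr11:53415001-53545000 (130 kb) Th1 had 936 positions of Ezh2 beside 1204 of input, and Th2 899 beside 1035. Thus Ezh2 was 1.12-fold of input in Th1 (1.03 to 1.22), and in Th2 only 0.747-fold (0.682 to 0.817). The median tile of this width stood at 0.879-fold in Th1 and 0.881-fold in Th2. At least as high as this window were 19.6% of tiles in Th1 and 80.3% in Th2. The Th2 library was therefore below the median tile here and the Th1 library above it, and neither fold was rare among tiles. Ezh2 had a Th1 to Th2 ratio of 1.44 (1.31 to 1.58), or 1.5 over the inputs (1.32 to 1.70), and 0.0829% of tiles had a ratio as high.

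No block of Ezh2 was found in the Il4-Il5 window. Its 6 enriched bins, 4.96% of 121 tested against 8.59% in the genome, all stood alone, and the fullest of them, chr11:53455001-53456000, had 14 positions of Ezh2 in Th1 and 15 in Th2. The largest ratio among them, 3.36 (1.32 to 9.59), came from 17 against 7 positions in chr11:53449001-53450000. The smallest, 1.11 (0.473 to 2.53), came from 12 against 15 in chr11:53530001-53531000. Outside the enriched bins the ratio was 1.42 (1.29 to 1.57). In 5 equal stretches of 26 kb, from left to right, it was 1.94 (1.58 to 2.39), 1.40 (1.16 to 1.70), 1.03 (0.829 to 1.28), 1.27 (0.997 to 1.62) and 1.66 (1.34 to 2.05). The Th1 library was thus higher toward both ends, and the intervals of the stretches at 1.03 and 1.27 hold 1. The 100 kb to the left had a ratio of 1.17 (1.06 to 1.29) and the 100 kb to the right 1.03 (0.928 to 1.14). Both ratios lie within the 5th to 95th percentile of tiles of 100 kb, 0.810 to 1.18.

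**Figure D2:**
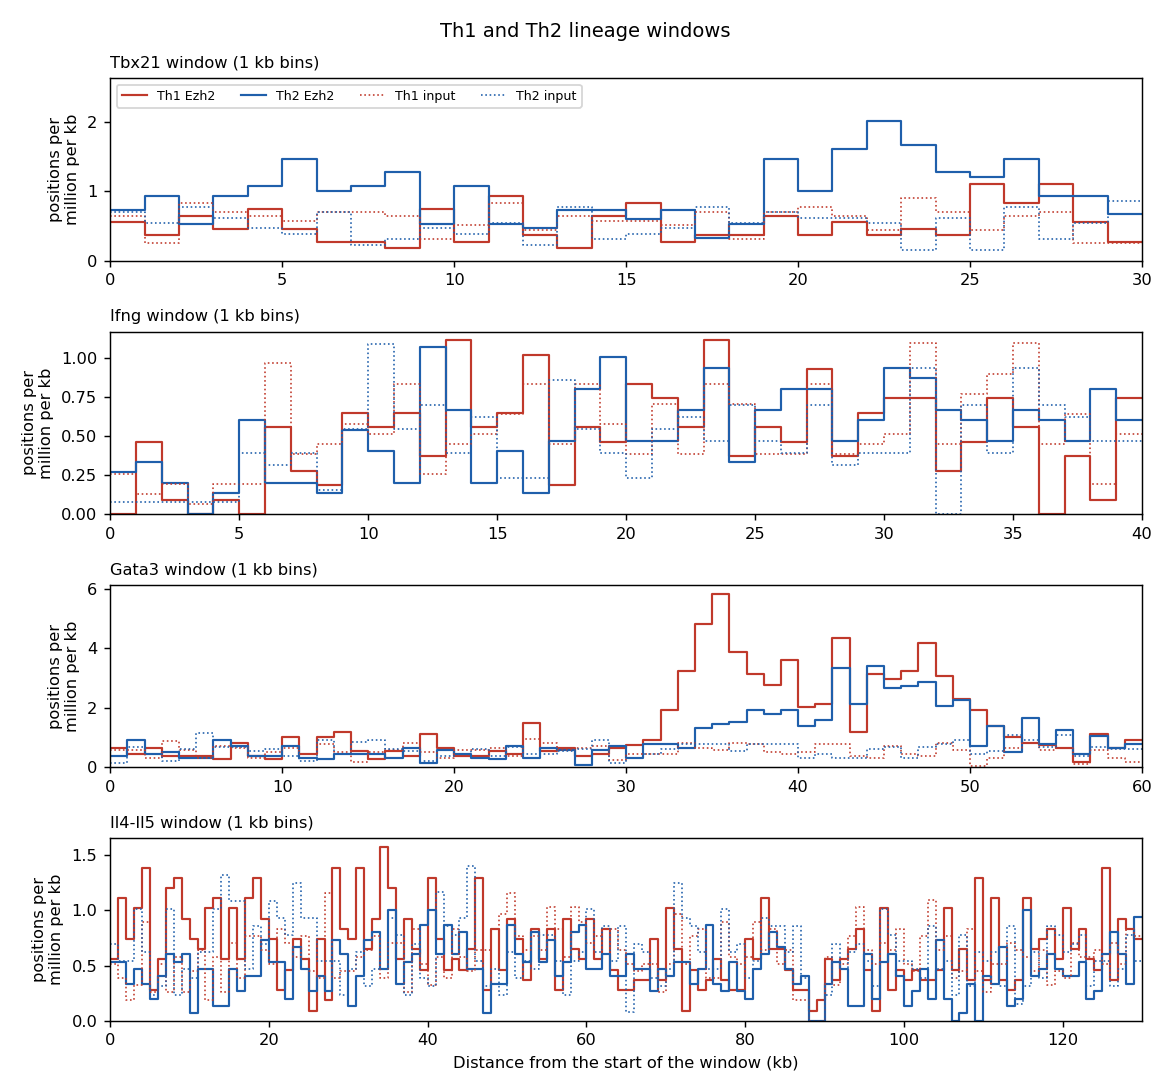
Positions per 1e6 positions of the library in each 1 kb bin along the Tbx21, Ifng, Gata3 and Il4-Il5 windows, against the distance from the window's start in kb; solid lines are Ezh2 and dotted lines input, red Th1 and blue Th2, and the vertical scales differ. The blue Ezh2 line rises over the others in the Tbx21 window, the Gata3 block begins 32 kb into its window with red above blue at its left edge, and the Ifng and Il4-Il5 windows show no block.

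Among the 3 windows named for genes outside the Th1 and Th2 programmes, that of Epas1 had the largest Th1 to Th2 ratio of the 7. The window chr17:87140001-87240000 (100 kb) held 1048 Ezh2 positions in Th1 and 788 in Th2, with 900 and 755 in the inputs. Ezh2 was 1.68-fold over input in Th1 (1.53 to 1.84), and in Th2 0.897-fold (0.811 to 0.993), so Th2 was close to the median tile, 0.879-fold. The ratio was 1.84 (1.68 to 2.02), and 0.00399% of tiles of this width reached it, out of 25043. Over the inputs it was 1.87 (1.63 to 2.14). Tiles that overlap the window were kept, so a tile that reached the ratio can hold part of the window itself.

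At the left side of the Epas1 window Th1 had a peak of Ezh2, while Th2 lay close to its input. The run chr17:87153001-87160000 (7 kb, 13 kb into the window) held 213 Ezh2 positions in Th1 and 72 in Th2, against 46 and 48 in the inputs. There Ezh2 was 6.67-fold over input in Th1 (4.83 to 9.39), and 1.29-fold in Th2 with an interval, 0.883 to 1.90, that holds 1. The ratio in this run was 4.10 (3.12 to 5.43). In its fullest bin, chr17:87154001-87155000, Th1 had 67 positions and Th2 had 17, and the bin with the largest ratio, chr17:87155001-87156000, had 37 and 9, a ratio of 5.69 (2.7 to 13.4). The difference reached past the peak: in bins that were not enriched the ratio was 1.64 (1.47 to 1.81). It also reached past the window on one side, since the 100 kb to the right stood at 1.57-fold over input in Th1 (1.43 to 1.72), and in Th2 0.979-fold (0.885 to 1.08). To the left, Th1 and Th2 had a ratio of 1.01 (0.910 to 1.12).

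The Foxp1 window was the widest, and Ezh2 was higher there in Th2. Across chr6:98870001-99480000 (610 kb) Th1 had 4279 positions of Ezh2 beside 5544 of input, and Th2 8185 beside 4149. Over input, Th1 stood at 1.11-fold (1.07 to 1.16) and Th2 at 1.70-fold (1.63 to 1.76). Ezh2 was 1.38-fold higher in Th2 (1.33 to 1.43), and 0.0242% of tiles of this width, 1 in 4136, had a Th1 to Th2 ratio as low. That tile can hold much of the window itself, since tiles that overlap the window were kept. The inputs differed in this window too, with a Th1 to Th2 ratio of 1.10 (1.06 to 1.15), and over them Ezh2 was 1.52-fold higher in Th2 (1.44 to 1.61). That last value thus holds the difference between the inputs as well.

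Enriched bins of the Foxp1 window lay in 53 runs and made up 128 of 598 bins tested (21.4%, against 8.59% in the genome). The fullest run, chr6:99189001-99224000 (35 kb, 319 kb into the window), held 383 positions in Th1 and 983 in Th2, with 268 and 264 in the inputs, and was 2.06-fold over input in Th1 (1.76 to 2.42), and in Th2 3.20-fold (2.79 to 3.68). Near the window's right end, chr6:99466001-99474000 (8 kb) held 70 positions in Th1 and 283 in Th2, against 65 and 49 in the inputs. That run was 1.55-fold over input in Th1 (1.09 to 2.21), and in Th2 4.96-fold (3.66 to 6.87), and its level in Th2 was 2.92-fold that in Th1 (2.24 to 3.85). Both runs stood over input in both cell types, with the smaller of them differing more. The next run, chr6:99284001-99294000 (10 kb), had 91 Th1 and 199 Th2 positions and was 1.58-fold higher in Th2 (1.23 to 2.05). Among 135 tested bins in runs, the largest Th1 to Th2 ratio, 2.49 (1.09 to 6.04), came from 18 against 10 positions in chr6:99422001-99423000. The smallest was in chr6:98977001-98978000, which had 31 positions in Th2 and 0 in Th1, where the inputs had 5 and 5. Set against the 3 positions that a count of 0 allows, and with the 31 taken as they stand, Ezh2 in this bin was at least 7.46-fold higher in Th2. The 95% interval of that ratio, which counts the error of both, begins at 5.72. Bins that were not enriched were also 1.28-fold higher in Th2 (1.22 to 1.34), while the 100 kb on either side had Th1 to Th2 ratios of 1.09 (0.964 to 1.22) and 1.00 (0.902 to 1.12).

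The Hand2 window had the highest Ezh2 over input of the 7 in both cell types. The 60 kb of chr8:59780001-59840000 held 1406 Ezh2 positions in Th1 and 3304 in Th2, while the inputs held 452 and 402. Ezh2 was 4.48-fold over input in Th1 (4.03 to 5.00), and in Th2 7.06-fold (6.37 to 7.86), and 0.118% and 0.0600% of tiles of this width reached these folds. The level was 1.70-fold higher in Th2 (1.59 to 1.81), and 1.58-fold over the inputs (1.36 to 1.83). A single run of 49 kb, chr8:59785001-59834000, held nearly all of it, with 1346 positions in Th1 and 3159 in Th2 against 369 and 343 in the inputs. Along the window the Th1 and Th2 libraries followed each other, with a Spearman's rho of 0.94 over 60 neighbouring bins, and their fullest bins adjoined, chr8:59800001-59801000 in Th1 (91 positions) and chr8:59799001-59800000 in Th2 (160). The difference at Hand2 was thus one of level along a common profile. By contrast, rho between Th1 and Th2 was 0.68 at Gata3, 0.28 at Ifng, 0.25 at Il4-Il5, 0.23 at Foxp1 and 0.14 at Epas1, all over bins that share libraries.

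**Figure D3:**
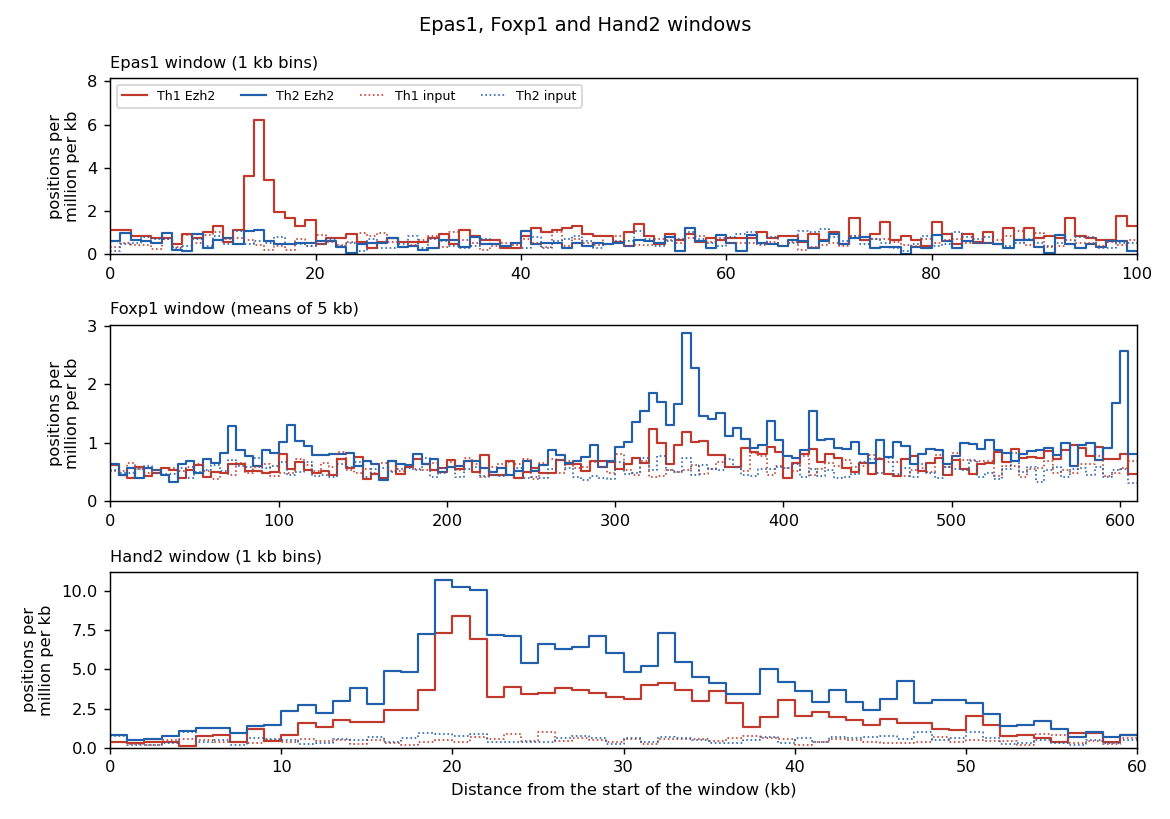
Positions per 1e6 positions of the library and per kb along the Epas1 and Hand2 windows (1 kb bins) and the Foxp1 window (means of 5 bins), against the distance from the window's start in kb; solid lines are Ezh2 and dotted lines input, red Th1 and blue Th2, and the vertical scales differ. Epas1 has a peak in Th1 from 13 kb, Foxp1 has higher Th2 levels from about 319 kb and at its right end, and at Hand2 blue follows red at a higher level.

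Set side by side, the windows fell into 3 with more Ezh2 in Th1 (Gata3, Il4-Il5 and Epas1), 3 with more in Th2 (Tbx21, Foxp1 and Hand2) and Ifng, whose interval holds 1. Those directions were known when the windows were chosen. The Th1 to Th2 ratio of the inputs lay between 0.913 at Gata3 and 1.17 at Ifng. The inputs' interval held 1 in every window but Foxp1. The median tile had an Ezh2 ratio between 0.982 and 0.995, depending on its width. The control antibody is not part of the rule, and in Th1 it stood at 0.777-fold of input at Tbx21, 0.787 at Epas1, 0.858 at Ifng, 0.868 at Il4-Il5, 0.876 at Foxp1 and at Hand2, and 1.13 at Gata3. The value at Gata3 has an interval of 0.980 to 1.29 and lies above those of the other windows, beside the higher Ezh2 of Th1 there, and its part in that result was not tested. In the Gata3 block the control was 1.21-fold of input, against 5.47-fold for Ezh2, and in the Epas1 run it was 0.617-fold, against 6.67-fold. The Th2 control antibody was at hand for chromosome 6, and it stood at 0.929-fold of input at Foxp1 (0.888 to 0.971).

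**Figure D4:**
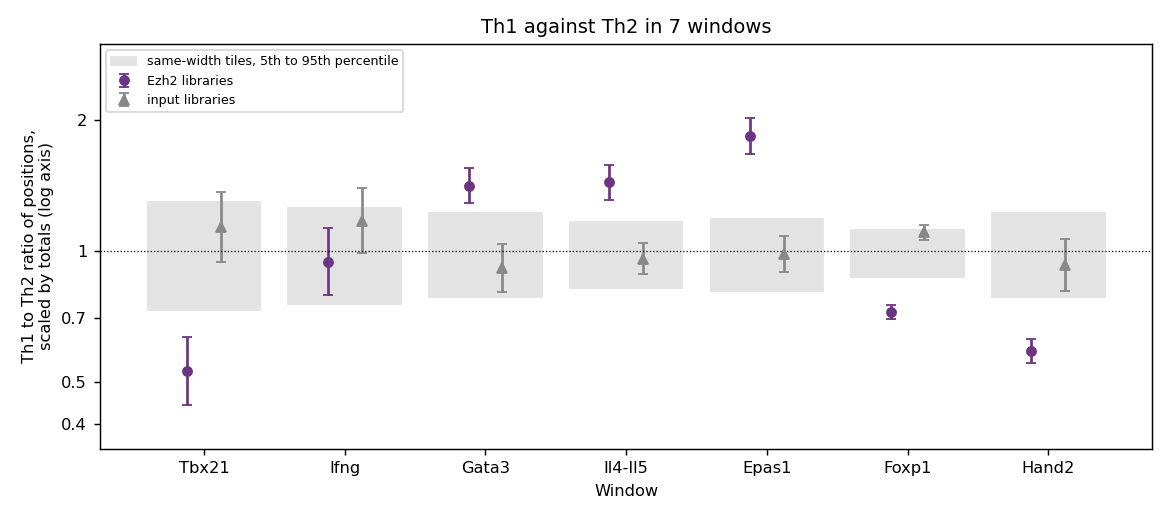
Th1 to Th2 ratio of positions per library total, on a log axis, for the Ezh2 (circles) and input (triangles) libraries in each window; bars are 95% intervals for counting error and grey boxes the 5th to 95th percentile of end-to-end tiles of the same width. The boxes are of the Ezh2 ratio only, which lies outside them in every window but Ifng. The input ratio, whose own spread over tiles was not computed, lies inside them in all 7.

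Single bins were counted as well, beside the same count over the genome. Among bins with at least 20 Ezh2 positions over both libraries, Th1 was at least 2-fold over Th2 in 8.95% of 207228 bins in the genome and Th2 at least 2-fold over Th1 in 8.00%, with 0.5 added to each count. Th1 exceeded Th2 in this way in 8 of 30 such bins at Gata3, 8 of 20 at Il4-Il5 and 15 of 31 at Epas1, and Th2 exceeded Th1 in none of them. In the other direction, Th2 exceeded Th1 in 7 of 12 bins at Tbx21, 76 of 287 at Foxp1, 13 of 53 at Hand2 and 2 of 7 at Ifng. Th1 exceeded Th2 in 6 of the 287 at Foxp1 and in 0 at the other 3. The windows were chosen on this contrast, so nothing is read from these counts.

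Against input, a fold of at least 2 in single bins is common at this depth. It was reached by 14.7% of bins tested in Th1 and 14.6% in Th2, and by 11.9% with the Th1 control antibody, with at least 10 positions over the pair of libraries. At Hand2 it was reached by 45 of 57 bins in Th1 and 56 of 59 in Th2, at Gata3 by 25 of 56 and 17 of 54, and at Tbx21 by 3 of 27 and 12 of 30. Ifng had 2 of 28 and 3 of 30, Il4-Il5 18 of 119 and 11 of 113, and Epas1 25 of 99 and 7 of 87. At Foxp1 there were 90 of 562 and 203 of 578. A stricter count, added after seeing the data, asked that the whole interval lie above 2, as in 0.774% of bins in Th1, 0.949% in Th2 and 0.140% with the control antibody. By this count Hand2 had 25 bins in Th1 and 37 in Th2, Gata3 had 13 and 4, Epas1 had 4 and 0, Foxp1 had 2 and 14, and Tbx21 had 0 and 1. Ifng and Il4-Il5 had 0 in both libraries, and the control antibody had 0 in all 7 windows.

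The levels beside the windows were looked at as well. Among tiles of 100 kb, the 5th to 95th percentile of the Th1 to Th2 ratio ran from 0.810 to 1.18. Of the flanks given in this paragraph, only those to the right of Tbx21 and to the left of Gata3 lie outside that range. Around Tbx21, the 100 kb to the left stood at 1.41-fold over input in Th1 and 1.51-fold in Th2, with a ratio of 1.08 (0.988 to 1.17), and the 100 kb to the right had a ratio of 0.770 (0.693 to 0.854). The higher level of Th2 at Tbx21 thus went on past the window's right edge, while the interval on the left holds 1. Around Gata3 the ratios were 1.23 to the left (1.11 to 1.36) and 0.874 to the right (0.782 to 0.975). On the left of Hand2 the ratio was 0.811 (0.706 to 0.930) and on the right 0.958 (0.870 to 1.05), where both cell types stood 1.42-fold and 1.43-fold over input. For Ifng the flanks had ratios of 1.02 (0.884 to 1.17) and 0.882 (0.798 to 0.975).

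**Figure D5:**
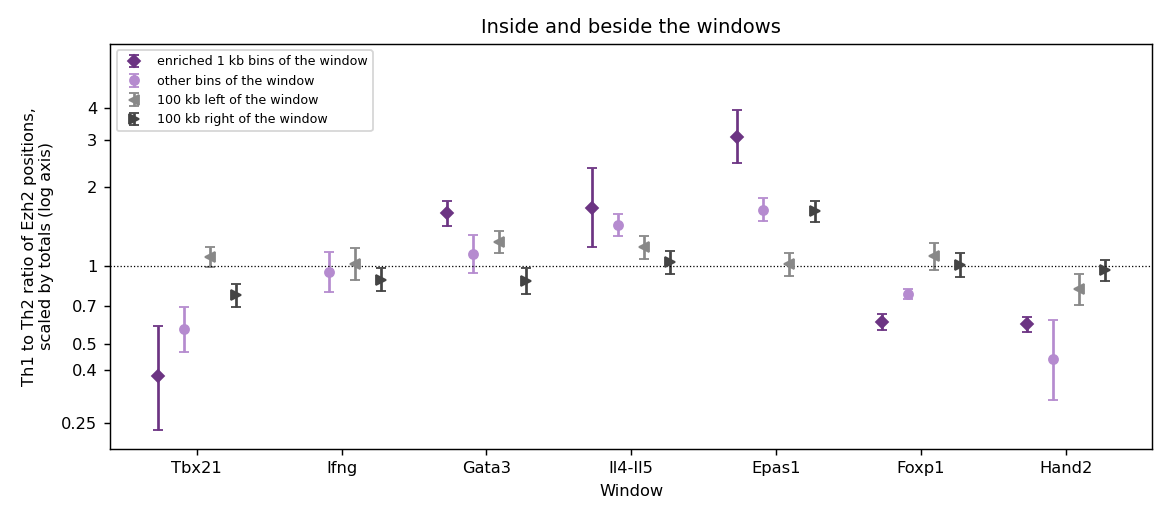
Th1 to Th2 ratio of Ezh2 positions per library total, on a log axis, in the enriched bins of each window (diamonds), its other bins (circles) and the 100 kb to its left and right (triangles); bars are 95% intervals for counting error, and Ifng has no enriched bin. At Epas1 the enriched bins reach 3.09 while the other bins and the right flank lie near 1.6, and at Tbx21 the enriched bins fall to 0.379.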

How the data were processed

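Per the labels' protocols, fragments of 170 to 250 bp were amplified by 18 PCR cycles and sequenced for 36 cycles. Per the submitters' processing notes the authors used CASAVA and mm9; no other setting was given in the sources used here. Each line of the deposited files held an interval and a read count, without strand or normalization. Chromosomes 1 to 19 and X were used; the Th2 control antibody was used on 8 chromosomes, and its others were not analysed here. The windows and rules were chosen with earlier results of these data known. All 7 windows were named. In each, up to 3 runs (gaps of at most 1 bin) with the most Ezh2 positions were drawn up, with the bins of largest and smallest ratio in runs. Not all of these are printed above. Bins of highest count, stretches within windows and flanks were added after seeing the data. Tiles lay end to end, with at least 1 input position per kb on average, and tiles that overlap a window were kept. Python 3.11.15, numpy 2.4.6 and scipy 1.17.1 were used, and the steps were tested on simulated data. Alternatives covered bins, reads, scaling, depth, background and window edges.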

Additional observations from a re-analysis of the deposited data

Results flagged for a closer look

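In 4 windows Ezh2 lay above input in one cell type and below it in the other, with 1 library each, and the difference was not tested. The Th1 to Th2 ratio of Ezh2 over input was 0.466 at Tbx21, 0.804 at Ifng, 1.5 at Il4-Il5 and 1.87 at Epas1. At Ifng the intervals of both folds hold 1, as does that of Th1 at Tbx21. Those folds changed sides of 1 under other settings, while the Th1 to Th2 ratio over input kept its direction in all 4 windows under every setting tried. The setting with both inputs pooled only repeats the ratio of Ezh2 positions. Since the median tile lay at about 0.88-fold of input, Ezh2 in Th2 at Epas1, 0.897-fold, was near the usual level of the genome.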

How the results depend on the processing

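No paired analysis was possible because there was only 1 library per group, and for the same reason no library could be left out. Of 179 window values under other settings, 145 stayed within the interval of the reported value, and no Th1 to Th2 ratio changed direction but that of Ezh2 positions at Ifng, which was 1.01 with all reads. Of the 145, 6 came from setting both Ezh2 libraries over the pooled inputs, which cancel, so they only repeat the ratio of Ezh2 positions. Thinning to equal depth, counting all reads and counting intervals at their start moved no value beyond its interval. With enriched bins alone, Ezh2 over input in Th2 changed sides of 1 at Il4-Il5 (1.86) and Epas1 (1.70). These bins were picked for high Ezh2, by construction. In them Ezh2 over input in Th1 was 5.40 at Gata3, 3.31 at Il4-Il5, 5.76 at Epas1, 2.08 at Foxp1 and 5.26 at Hand2. In Th2 it was 5.10 at Tbx21, 3.04 at Gata3, 3.47 at Foxp1 and 7.90 at Hand2. Their Th1 to Th2 ratio of positions was 0.379 at Tbx21, 1.58 at Gata3, 1.66 at Il4-Il5, 3.09 at Epas1 and 0.608 at Foxp1. Over input it was 0.198, 1.78, 1.78, 3.38 and 0.599 in the same order, the Gata3 value lying within its reported interval. Ifng had no enriched bin.

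With the control antibody in place of input, Th1 Ezh2 stood at 1.14-fold at Tbx21, 2.34 at Gata3, 1.29 at Il4-Il5, 2.13 at Epas1, 1.27 at Foxp1 and 5.12 at Hand2, and Th2 at 1.84 at Foxp1. Folds whose interval holds 1 also changed sides of 1: Th1 at Tbx21 with this background, and to 1.01 with enriched bins or the other input, and at Ifng Th1 with this background (1.07) or the other input (1.08) and Th2 with the other input (0.975). In windows widened by 10 kb on each side, Th1 stood at 2.28 at Gata3, and Hand2 at 3.64 in Th1 and 5.66 in Th2. With the other cell type's input, Foxp1 was 1.23-fold in Th1 and 1.54-fold in Th2. Scaling by the enriched bins of the genome, whose median Th1 to Th2 ratio over input was 0.920, gave 0.713 at Foxp1. Pooled inputs gave 0.724 there, which is the ratio of Ezh2 positions again, since the same inputs on both sides cancel.

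The count of bins past 2-fold over input in the 7 windows was 208 in Th1 (21.9% of bins tested, against 14.7% in the genome) and 309 in Th2 (32.5% against 14.6%). It became 82 (16.0% against 7.62%) and 140 (27.3% against 8.19%) with 2 kb bins, and 109 (35.4% against 25.7%) and 203 (45.9% against 25.6%) with double the minimum of positions. It was 44 and 56 with the interval above 2 (0.774% and 0.949% of bins tested in the genome), and 324 in Th1 at a fold of 1.5 (34.2% against 25.7%). Bins higher in Th1 than in Th2 were 37 (8.41% against 8.95%). They became 7 with double the minimum (8.86% against 1.05%), 68 at a fold of 1.5 (15.5% against 22.2%) and 123 with all reads (13.1% against 17.7%). With the interval above 1 they were 23, where 4.31% of bins tested in the genome were called. Those higher in Th2 were 98 (22.3% against 8.00%). They became 64 with 2 kb bins (13.1% against 6.24%), 21 with double the minimum (26.6% against 6.16%), 179 at a fold of 1.5 (40.7% against 18.1%) and 209 with all reads (22.2% against 17.5%). The Foxp1 window holds 610 of the 1030 bins of the 7 windows. As reported, it gave 90 of the 208 and 203 of the 309 bins past 2-fold over input. It gave 6 of the 37 bins higher in Th1 and 76 of the 98 higher in Th2. The pooled shares thus rest largely on that window and mix windows chosen in both directions, so nothing is read from them. The depth, often under 20 positions per bin, limits single bins.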
